A study of Arabidopsis thaliana with 8 samples.

Results

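Of 22746 probe sets measured in Arabidopsis thaliana seedlings, 61 moved in opposite directions under NaCl in the 2 genotypes compared, being higher after NaCl in plants that overexpress OsSHMT3 and lower after NaCl in wild-type. A probe set is a group of short oligonucleotides that together read a transcript. The members were chosen on the means of 2 arrays per group: the log2 difference NaCl minus control had to be 1 or more in the overexpresser and -1 or less in wild-type. In all, 70 probe sets, or 0.308% of those measured, passed both limits, and 9 of them were left out by gene name. Of the 61 that remain, 33 name 1 gene, 1 names 2 genes and 27 carry no gene name here. The choice used all 8 arrays and both NaCl comparisons, so the levels of the members below are a description and carry no test.

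The series holds 8 ATH1 arrays in 4 groups of 2, each made with RNA of whole seedlings at an age of 14 days. OE NaCl and OE control are seedlings of a transgenic line with the rice serine hydroxymethyltransferase gene OsSHMT3, after 24 h in 150 mM NaCl and without it, and WT NaCl and WT control are Col-0 wild-type seedlings handled alike. The transgene stands behind the pENTCUP2 promoter of the pORE-E2 vector, and OE is a single line, called OE3 in 1 sentence of the methods and OE5 in another. The sources differ on the RNA (an RNeasy kit and triplicates in the methods, Trizol and 2 arrays per group in the labels), and a figure legend gives less NaCl than the labels. No probe set used here reads the rice gene, so the arrays hold no check of the transgene. The methods speak of biological replicates for the experiments in general, but neither they nor the labels say whether the 2 arrays of a group came from separate cultures, so the spread between them may be technical.

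Seeds of Arabidopsis fill during maturation with storage proteins of the cupin and albumin families and with oil held in bodies coated by oleosins, and then accumulate late embryogenesis abundant (LEA) proteins that protect cells as they dry. These genes are switched on by abscisic acid and by the seed maturation factors, and most are silent in vegetative tissue. Salt and drought also raise abscisic acid, through which a number of LEA and dehydrin genes respond in leaves and roots. Several named members belong to these families, and the others range over small secreted defence proteins, enzymes of the cell wall, of redox repair and of glucosinolate synthesis, and genes whose role is little known.

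The arrays had medians of 6.00 to 6.32 on the log2 scale in OE and 6.27 to 6.33 in wild-type. Over all probe sets, replicate arrays differed with an SD of 0.55 in OE NaCl, 0.43 in OE control, 0.12 in WT NaCl and 0.21 in WT control, so OE values are the less precise. The labelled tissue, whole seedlings, was set against marker genes. The leaf genes LHCB4.1, LHCB4.2 and RCA lay between 12.38 and 13.41 on all 8 arrays, and the anther genes AT5G07230, ATA27 and SHT between 3.53 and 5.27. Among root genes, the beta-glucosidase gene PYK10 lay between 7.01 and 9.74, and was higher after NaCl by 1.92 in OE (adjusted p = 0.0030 by limma) and by 1.32 in wild-type (adjusted p = 0.015, and up to 0.15 with 1 array left out), while the root hair expansin genes EXPA7 and EXPA18 were low, at 3.96 to 5.56. The part of the PYK10 difference in the members' levels was not tested. Seed genes, described below, were also read. Over the 8 arrays the 7 measured genes on a list of storage protein and oleosin genes lay between 3.09 and 10.73. The 3 measured seed coat genes lay between 4.25 and 9.19. In WT control the oleosin gene OLEO3 had 9.11 and 9.17, and the seed coat gene BAN 8.72 and 8.46. The source of these seed transcripts in seedlings was not tested. Transcripts of whole seedlings mix all tissues, and fewer cells of a type and less RNA per cell cannot be told apart.

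**Figure D1:**
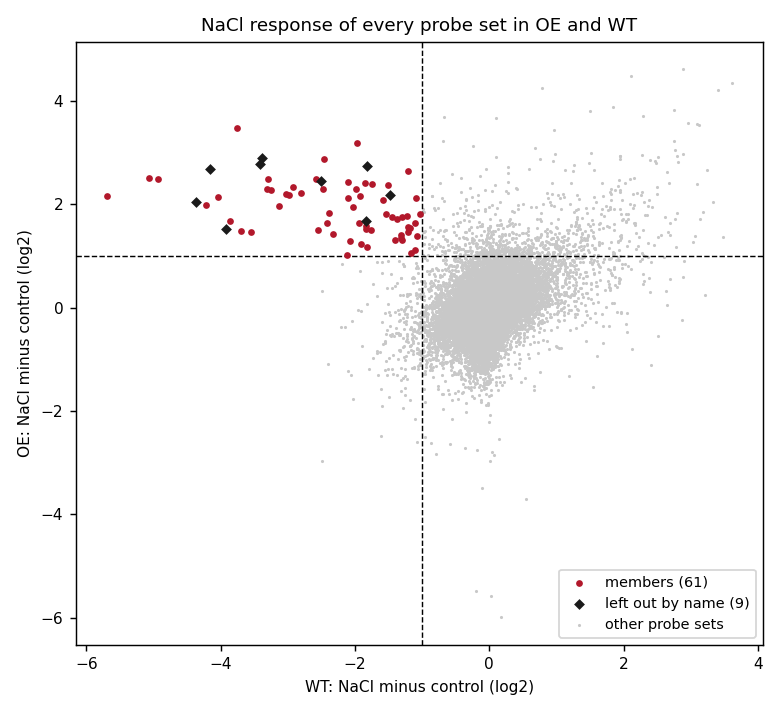
Each point is 1 probe set, placed by its log2 difference NaCl minus control in wild-type (horizontal) and in OE (vertical), with means of 2 arrays; red points are the 61 members, black diamonds the 9 left out by name, grey points the rest, and dashed lines the limits. The members span 1.02 to 3.48 in OE and -5.69 to -1.04 in wild-type.

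The NaCl difference of the members was 1.02 to 3.48 in OE, with a median of 1.83, and -5.69 to -1.04 in wild-type, with a median of -1.97. Over all probe sets the medians were 0.01 in OE and -0.05 in wild-type. On the linear scale the members were 2.03 to 11.2 times higher in OE NaCl than in OE control and 2.05 to 51.6 times lower in WT NaCl than in WT control. The OE difference was the larger in size for 27 members, those in which the 2 signed differences had a positive sum. That sum was positive in 46.1% of all probe sets, a share that counts differences of any sign and does not compare sizes.

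Both OE NaCl arrays lay above both OE control arrays for 60 of 61 members, against 23.1% of all probe sets. Both WT NaCl arrays lay below both WT control arrays for 61 members, against 38.1%. With limma and Benjamini-Hochberg adjustment over all probe sets, an adjusted p under 0.05 was reached by 59 members for the OE difference (4.88% of all probe sets, in that direction), by 56 for the wild-type difference (2.56%) and by 60 for the difference of the 2 responses (1.23%). These counts follow from the way the members were chosen. The OE count was 27 in a fit to only the 4 OE arrays. The wild-type count was 35 to 38 where 1 of the 4 wild-type arrays was left out.

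The groups also had an order across treatments. Mean levels ran OE NaCl, WT control, OE control and WT NaCl, high to low, in 38 members. The choice itself put OE NaCl above OE control and WT control above WT NaCl in every member. The share of all probe sets with this order was not counted. Both OE control arrays were below both WT control arrays in 58 members (36.3% of all probe sets), and the 3 exceptions were AT1G62210, AT2G43550 and the unnamed 250620_at. OE control minus WT control had a median of -1.22 over the members, beside -0.02 over all probe sets, and 49 members had an adjusted p under 0.05 and were lower in OE control (12% of all probe sets). That count was 18 without the first WT control array and 24 without the second. After NaCl the order of the genotypes was the opposite: both OE NaCl arrays were above both WT NaCl arrays in 60 members (32.6% of all probe sets), the median of OE NaCl minus WT NaCl was 2.59, and 57 members had an adjusted p under 0.05 (4.12%). The genotype differences share their arrays with the NaCl differences that chose the members, and they too are a description.

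Across treatments, the high groups were OE NaCl and WT control. The mean of OE NaCl was above that of WT control in 46 members (52.7% of all probe sets), and the 2 groups did not overlap, with OE NaCl the higher, in 40 (26.2%). WT control was the higher group without overlap in 11 members (26.3%). OE NaCl minus WT control ran over the members between -1.92 and 2.44, with a median of 0.70. At the low end, the mean of OE control was above that of WT NaCl in 48 members (51.7%), without overlap in 42 (39.8%), and WT NaCl was the higher without overlap in 8 (37.4%).

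**Figure D2:**
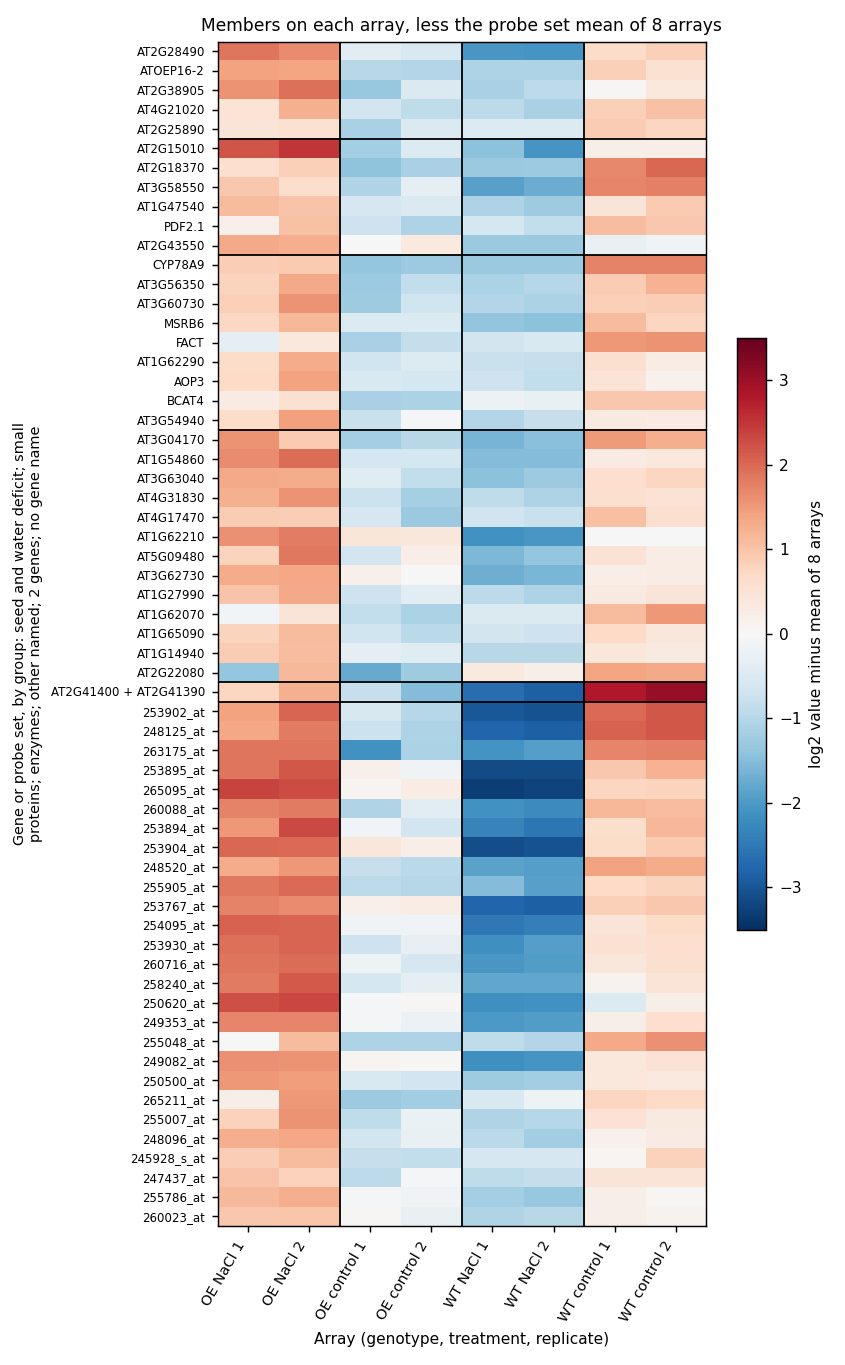
Rows are the 61 members by group of role, columns the 8 arrays, and colour is the log2 value less that probe set's mean over the 8 arrays (red above, blue below). In 38 members mean levels run OE NaCl, WT control, OE control and WT NaCl from high to low, an order that the choice fixes in part. The darkest blue lies on the WT NaCl arrays.

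Among the seed storage, oil body and water deficit genes, AT2G28490, which encodes a vicilin-like seed storage protein of the cupin family, had log2 values of 9.87 and 9.67 in OE NaCl and 7.64 and 7.47 in OE control, against 5.98 and 5.93 in WT NaCl and 8.66 and 8.84 in WT control. The 4 groups did not overlap, OE NaCl being the highest and WT NaCl the lowest. NaCl minus control was 2.22 ± 0.15 in OE and -2.80 ± 0.15 in wild-type (here and below ± is the SE from the fit, with 2 arrays per group). The fit shares 1 spread among the 4 groups, so ± is the same in both genotypes although OE replicates differed more. AT2G25890, of the oleosin family that coats oil bodies, had 5.04 and 5.10 in OE NaCl, 3.44 and 4.07 in OE control, 4.10 and 4.10 in WT NaCl and 5.46 and 5.33 in WT control. Here WT control was the highest group and OE control the lowest, and the oleosin transcript lay near the low end of the arrays' scale. Its differences were 1.31 ± 0.21 in OE and -1.29 ± 0.21 in wild-type. Membership of AT2G25890 ended where the first OE control array was left out.

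The LEA gene AT4G21020 had 5.47 and 6.24 in OE NaCl and 4.35 and 4.09 in OE control, against 4.09 and 3.87 in WT NaCl and 5.83 and 6.01 in WT control. The OE NaCl arrays lay on either side of those of WT control, and OE control and WT NaCl met at 4.09. ATOEP16-2, the seed form of a channel protein of the outer plastid envelope, had 7.43 and 7.39 in OE NaCl, 5.06 and 4.99 in OE control, 4.96 and 4.96 in WT NaCl and 6.86 and 6.56 in WT control. Its replicates were close, the differences being 2.39 ± 0.14 in OE and -1.75 ± 0.14 in wild-type. AT2G38905, of the low temperature and salt responsive family of small membrane proteins, had 8.20 and 8.56 in OE NaCl, 5.31 and 6.14 in OE control, 5.51 and 5.73 in WT NaCl and 6.67 and 7.00 in WT control. OE NaCl was 1.55 above WT control in this gene, the widest such gap of the 5 genes in this group.

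Of the named members, 6 encode small cysteine-rich or lipid-transfer proteins, which are secreted and are known from seed coats, storage tissue and defence. AT2G15010, of the thionin family of antimicrobial peptides, had 8.16 and 8.48 in OE NaCl and 4.77 and 5.49 in OE control, against 4.54 and 3.92 in WT NaCl and 6.18 and 6.21 in WT control. The OE difference was 3.19 ± 0.29, or 9.14-fold, the second largest of all members, and OE NaCl stood 2.12 above WT control. PDF2.1, a plant defensin, had 8.43 and 9.28 in OE NaCl, 7.52 and 7.17 in OE control, 7.63 and 7.38 in WT NaCl and 9.33 and 9.19 in WT control. The OE control and WT NaCl arrays of PDF2.1 overlapped at the low level, and its OE NaCl and WT control arrays at the high level.

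The lipid-transfer genes stood apart from the thionin gene in where their highest level lay. AT3G58550 had 7.96 and 7.63 in OE NaCl, 5.96 and 6.71 in OE control, 5.14 and 5.28 in WT NaCl and 8.73 and 8.79 in WT control. AT2G18370 had 6.77 and 7.03 in OE NaCl, 4.79 and 5.05 in OE control, 4.90 and 4.92 in WT NaCl and 7.89 and 8.21 in WT control. In both, WT control was the highest group, by 0.97 and 1.14 over OE NaCl, and their wild-type differences, -3.55 ± 0.25 and -3.14 ± 0.18, were larger than those in OE, 1.46 ± 0.25 and 1.98 ± 0.18. The trypsin inhibitor genes AT1G47540 and AT2G43550 were nearer to balance, with 1.59 ± 0.18 and 1.12 ± 0.15 in OE and -1.84 ± 0.18 and -1.11 ± 0.15 in wild-type. AT2G43550 had 10.45 and 10.39 in OE NaCl, 9.14 and 9.46 in OE control, 7.82 and 7.82 in WT NaCl and 8.85 and 9.00 in WT control, and is 1 of 2 members in which both OE control arrays exceeded both WT control arrays (33.3% of all probe sets).

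**Figure D3:**
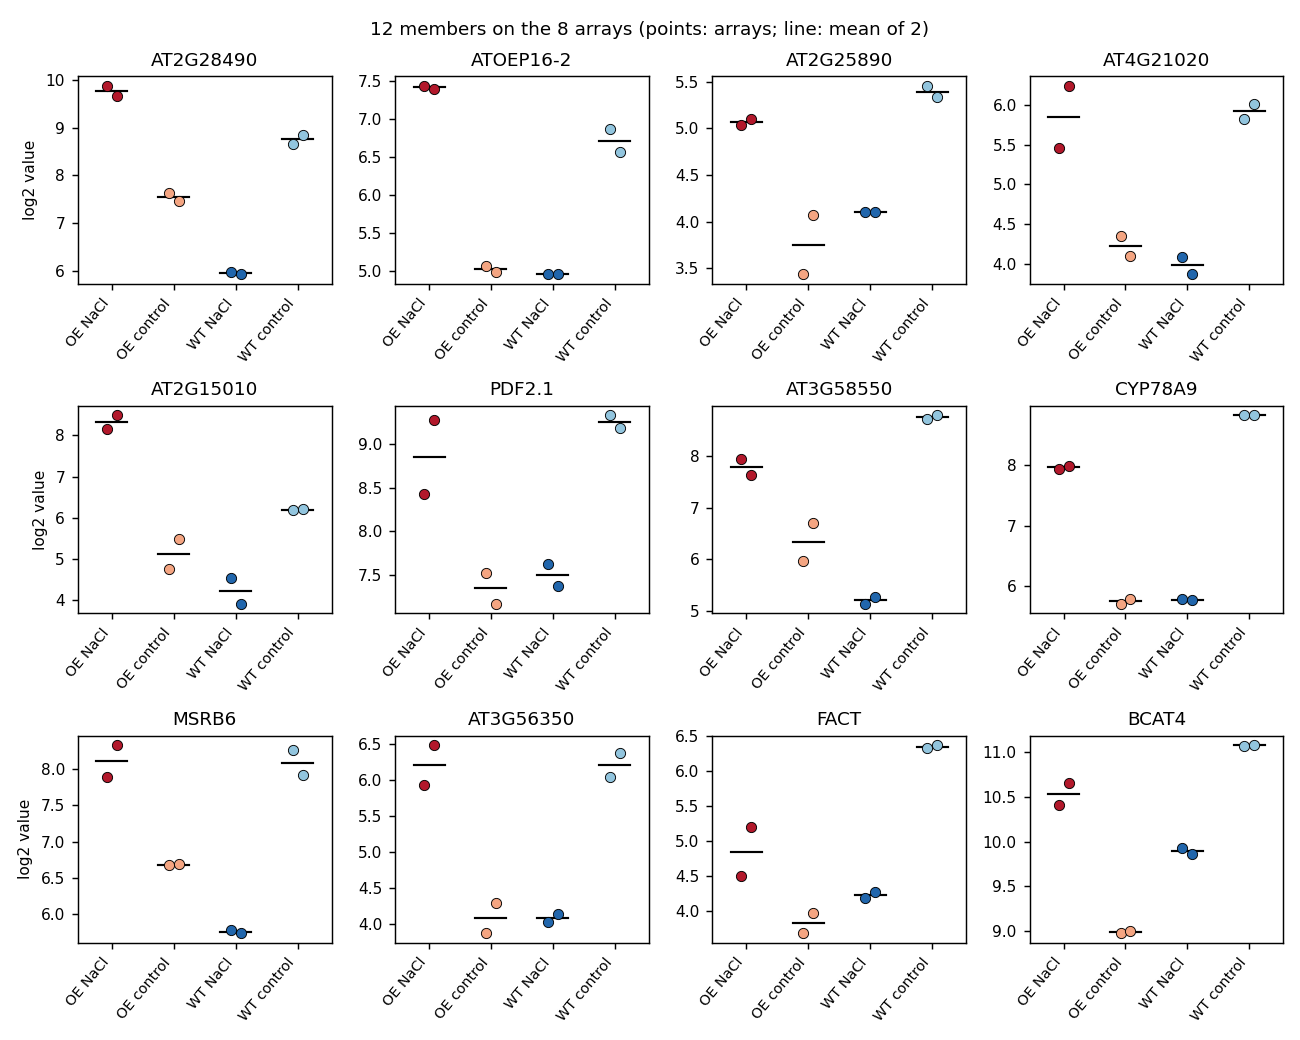
Each panel shows the log2 values of 1 member on the 8 arrays (points) with the mean of the 2 arrays of each group (line), OE NaCl, OE control, WT NaCl and WT control running left to right; vertical axes differ and do not start at 0. CYP78A9 has its highest values in WT control (8.81 and 8.81), whereas AT2G15010 has its highest in OE NaCl (8.16 and 8.48).

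The named members include 9 enzymes. CYP78A9, a cytochrome P450 whose overexpression enlarges fruits and seeds, had 7.93 and 7.99 in OE NaCl and 5.71 and 5.80 in OE control, against 5.79 and 5.77 in WT NaCl and 8.81 and 8.81 in WT control. The OE control and WT NaCl arrays overlapped at the low level, and WT control was 0.86 above OE NaCl. Its differences, 2.20 ± 0.12 in OE and -3.03 ± 0.12 in wild-type, came with close replicates in all 4 groups. FACT, which esterifies fatty alcohols with caffeic acid for the waxes associated with suberin, had 4.50 and 5.19 in OE NaCl, 3.68 and 3.97 in OE control, 4.18 and 4.27 in WT NaCl and 6.33 and 6.37 in WT control. Of all members FACT had the smallest OE difference, 1.02 ± 0.23, and it was 0.68 without the second OE NaCl array and 0.88 without the first OE control array, both under the limit. AT3G60730, a pectin methylesterase of the cell wall, had 5.48 and 6.20 in OE NaCl, 3.41 and 3.94 in OE control, 3.60 and 3.53 in WT NaCl and 5.47 and 5.51 in WT control.

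A pair of the enzymes deal with oxidation. MSRB6, a methionine sulfoxide reductase that repairs oxidized methionine, had 7.89 and 8.33 in OE NaCl, 6.68 and 6.69 in OE control, 5.78 and 5.74 in WT NaCl and 8.26 and 7.92 in WT control. AT3G56350, a superoxide dismutase of the manganese type, had 5.93 and 6.48 in OE NaCl, 3.88 and 4.29 in OE control, 4.04 and 4.15 in WT NaCl and 6.04 and 6.36 in WT control. In both genes the OE NaCl and WT control arrays overlapped, and their means differed by 0.02 and 0.00. The superoxide dismutase arrays overlapped at the low level too, and its OE difference of 2.12 ± 0.24 and its wild-type difference of -2.11 ± 0.24 were equal in size within the SE. Its OE control and WT NaCl levels lay under the lower quartiles of all probe sets, 4.61 and 4.28, near the low end of the arrays' scale. The same held for AT3G60730, FACT and AT4G21020. The part of this low end in the overlaps and sizes was not tested.

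BCAT4 and AOP3 belong to the synthesis of glucosinolates derived from methionine, BCAT4 starting the elongation of the methionine chain and AOP3 modifying the side chain. BCAT4 had 10.41 and 10.65 in OE NaCl and 8.98 and 9.01 in OE control, against 9.93 and 9.86 in WT NaCl and 11.07 and 11.07 in WT control. All 4 groups were apart, and OE control was the lowest, 0.90 below WT NaCl. AOP3 had 7.08 and 7.80 in OE NaCl, 5.84 and 5.76 in OE control, 5.67 and 5.52 in WT NaCl and 6.86 and 6.53 in WT control. The wild-type difference of AOP3, -1.10 ± 0.24, fell short of the limit where the first WT control array was left out. The proteases AT1G62290, an aspartic protease of the vacuole also called PASPA2, and AT3G54940, a cysteine protease of the papain type, were 1.56 ± 0.24 and 1.46 ± 0.31 higher in OE NaCl than in OE control and -1.21 ± 0.24 and -1.20 ± 0.31 in wild-type.

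The remaining 13 members that name 1 gene had OE differences of 1.17 to 2.42 and wild-type differences of -2.93 to -1.08. AT3G04170, of the germin-like family of secreted proteins, had 7.30 and 6.65 in OE NaCl, 4.54 and 4.75 in OE control, 4.08 and 4.25 in WT NaCl and 7.20 and 6.99 in WT control. OE NaCl and WT control overlapped in it. AT1G54860 had the largest OE difference of these 13, with 8.73 and 9.03 in OE NaCl, 6.45 and 6.47 in OE control, 5.55 and 5.56 in WT NaCl and 7.37 and 7.46 in WT control. Its 4 groups were apart, with OE NaCl 1.47 above WT control. AT3G63040 (1.96 ± 0.17 in OE and -2.03 ± 0.17 in wild-type) and AT4G31830 (2.37 ± 0.19 in OE and -1.51 ± 0.19 in wild-type) complete the 12 genes with the widest difference of responses.

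AT1G62210 differed from nearly all other members in control seedlings. It had 8.82 and 9.01 in OE NaCl, 7.63 and 7.60 in OE control, 5.08 and 5.17 in WT NaCl and 7.19 and 7.20 in WT control, so that both OE control arrays exceeded both WT control arrays. OE NaCl minus WT control, 1.72, was the second largest of the members with a gene name, after AT2G15010. AT2G22080 is a member through 1 array: it had 5.94 and 8.43 in OE NaCl, 5.53 and 6.07 in OE control, 7.65 and 7.51 in WT NaCl and 8.69 and 8.63 in WT control. The OE NaCl arrays of AT2G22080 differed by 2.49, the OE difference was 1.38 ± 0.69 with both and 0.14 without the second, and it is the only member whose OE NaCl mean was below its WT NaCl mean. In AT5G09480, with 6.46 and 7.52 in OE NaCl and 5.03 and 5.92 in OE control, the OE difference was 1.52 ± 0.40, and 0.99 without the second OE NaCl array.

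Few of the named genes lie close together on a chromosome. AT1G14940 is the direct neighbour of AT1G14950, which passed both limits and was left out by name. AT1G62210 has 11 protein-coding genes between it and AT1G62070, and 8 between it and AT1G62290, and all 3 are members. AT1G62070 had 8.73 and 9.29 in OE NaCl, 7.96 and 7.72 in OE control, 8.33 and 8.32 in WT NaCl and 9.94 and 10.36 in WT control, so its order of groups was unlike that of AT1G62210.

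The probe set with the widest difference of responses, 7.86, is shared by AT2G41400 and AT2G41390, which the array cannot separate. It had 7.51 and 8.01 in OE NaCl, 5.95 and 5.25 in OE control, 4.10 and 3.90 in WT NaCl and 9.55 and 9.82 in WT control. All 4 groups were apart, and the wild-type difference, -5.69 ± 0.27, or 51.6-fold, was the largest of the members. WT control stood 1.92 above OE NaCl, the widest gap in that direction.

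The 27 members without a gene name, 44.3% of the members beside 38.4% of all probe sets, hold 9 of the 10 widest differences of responses. Of them, 10 had a wild-type difference of -3 or less, as did 4 of the other 34. The choice used these differences, and the share of all probe sets at -3 or less was not counted. The unnamed 253902_at had 10.55 and 11.19 in OE NaCl and 8.58 and 8.14 in OE control, against 6.18 and 6.11 in WT NaCl and 11.12 and 11.31 in WT control. The largest OE difference of all members, 3.48, was that of 263175_at, with 8.57 and 8.57 in OE NaCl, 4.58 and 5.59 in OE control, 4.59 and 4.78 in WT NaCl and 8.41 and 8.47 in WT control. In 265095_at, with 12.94 and 12.85 in OE NaCl, 10.67 and 10.83 in OE control, 7.28 and 7.32 in WT NaCl and 11.32 and 11.35 in WT control, WT NaCl stood 3.45 below OE control, the widest such gap of the members. In 24 of the 27, OE NaCl was on average above WT control, and in 24 OE control was above WT NaCl.

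**Figure D4:**
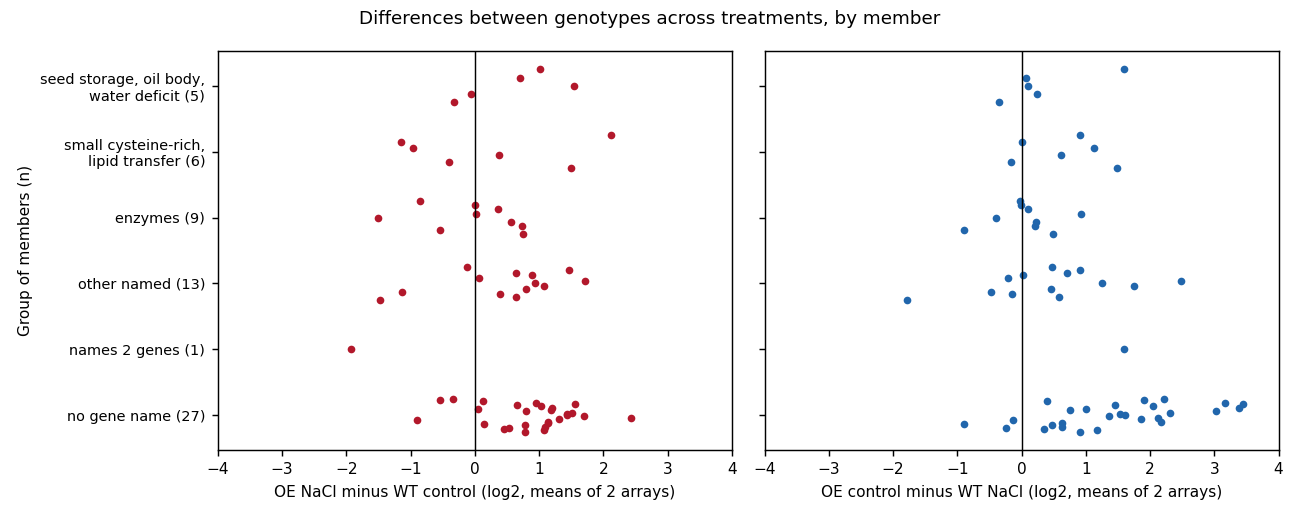
Points are members, in rows by group of role, placed by the log2 difference OE NaCl minus WT control (left) and OE control minus WT NaCl (right), with means of 2 arrays and a line at 0. Points right of 0 number 46 on the left and 48 on the right, and 24 of the 27 members with no gene name lie there in each.

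The members just inside and just outside the limits show how far the choice depends on them. Just inside the wild-type limit lay 245928_s_at at -1.04, AT2G22080 at -1.08 and 265211_at at -1.09, and just outside lay MSRB5 and AT1G12010, both at -0.99, and 248793_at at -0.98. Just inside the OE limit lay FACT at 1.02, 260023_at at 1.06 and AT2G43550 at 1.12, and just outside lay AT2G43535 at 0.91, AT4G38080 at 0.90 and AT2G23540 at 0.88. AT2G43535 is of the same family of trypsin inhibitors as AT2G43550. With any 1 array left out, 61 to 68 probe sets met the rule, and 50 of the 61 members met it in every case. Of the others, 10 lost membership with 1 particular array and FACT with either of 2.

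The rule can also be applied to 1 array per group and the result read on the other, which that choice did not use. The 9 genes were left out by name here too, while the shares of all probe sets include them. The members themselves were chosen on both arrays, so the split is no separate support for them. Of 63 probe sets that met the rule on the arrays numbered 1, 51 met it on the arrays numbered 2, where 0.339% of all probe sets did. All 63 had the same opposite signs there, beside 21.7% of all probe sets, with medians of 2.04 in OE and -2.03 in wild-type. Of 68 chosen on the arrays numbered 2, 51 met the rule on the arrays numbered 1 (0.317% of all probe sets) and 67 had the same signs (26%), with medians of 1.64 and -1.75. Whether the 2 arrays of a group came from separate cultures is not stated, so the split speaks only of how repeatable the array values are. The absolute difference between replicate arrays had a median over the members of 0.26 in OE NaCl, 0.26 in OE control, 0.09 in WT NaCl and 0.14 in WT control, beside 0.30, 0.24, 0.07 and 0.13 over all probe sets. The mean over all 8 arrays had a median of 7.21 over the members and 6.22 over all probe sets, on a scale where brightness also depends on the probes.

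Related genes were read from lists, each gene counted where a probe set names it alone. On 11 of the lists that held for only 56 of 220 entries. It held for 7 of 22 storage protein and oleosin genes, 20 of 32 LEA genes and 2 of 17 seed regulators. For cold and water deficit it held for 4 of 28, and for the seed coat for 3 of 20. Genes such as CRA1, OLEO1, ABI3 and RD29A were not read, and whether unnamed probe sets read them is not known here. Of 7 such genes on the list for storage proteins and oleosins, 1 is a member, AT2G28490, 3 were left out by name and 3 are neither. Those 3 had medians of 1.02 in OE and -0.71 in wild-type. The list does not hold AT2G25890, of the oleosin family, which is a member too. OLEO3, an oleosin, rose after NaCl in OE (10.54 and 10.36 in OE NaCl, 8.91 and 8.98 in OE control) and fell in wild-type (8.37 and 8.43 in WT NaCl, 9.11 and 9.17 in WT control). The responses of OLEO3 differed by 2.23 ± 0.18 (adjusted p = 0.0018 by limma), and the fall in wild-type was no longer called once either array of WT NaCl or WT control was left out (adjusted p = 0.13 to 0.26).

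LEA genes were measured outside the members too. Of the 16 that are not members and were not left out, 6 rose and 1 fell after NaCl in OE and 7 rose and 1 fell in wild-type, beside 4.88% rising and 2.33% falling of all probe sets in OE and 3.26% and 2.56% in wild-type. Their median differences were 0.59 in OE and 0.49 in wild-type. The responses differed in 5 of them, 3 with the higher response in OE and 2 with the higher in wild-type. LEA4-5 rose by 4.35 in OE and by 3.61 in wild-type. LEA4-1 had 8.61 and 8.60 in OE NaCl, 5.24 and 5.52 in OE control, 7.81 and 7.75 in WT NaCl and 8.48 and 8.46 in WT control, and its responses differed by 3.91 ± 0.20 (adjusted p = 0.00015). Its fall of 0.69 in wild-type was likewise not called with any of those 4 arrays left out (adjusted p = 0.20 to 0.33). The other two with the higher response in OE, AT3G17520 and AT3G02480, had differences of 3.10 and 4.49 in OE and of 0.68 and 2.11 in wild-type. Of 4 cold and water deficit genes measured, COR15A, COR47 and LTI30 rose in both genotypes, beside 4.88% of all probe sets in OE and 3.26% in wild-type. The fourth, COR15B, had differences of -0.24 in OE and -0.60 in wild-type, without a call. In both genotypes the calls of COR15A and COR47 were lost without at least 1 array. With 1 array left out their rises were at least 0.58 and 0.64 in OE and 1.09 and 1.18 in wild-type. The seed maturation factors BZIP53 and EEL changed by -0.23 and 0.87 in OE and -0.36 and 0.12 in wild-type, with no call by limma.

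Other genes of the members' families were read the same way. Of 4 MSRB genes measured, MSRB6 is a member. MSRB5 lay just outside the wild-type limit with 9.00 and 9.52 in OE NaCl, 7.01 and 7.69 in OE control, 8.44 and 8.45 in WT NaCl and 9.37 and 9.51 in WT control. Its responses differed by 2.90 ± 0.37 (adjusted p = 0.012), a call that ended where any wild-type array was left out (adjusted p = 0.076 to 0.10). MSRB9 had differences of 0.92 in OE and -0.92 in wild-type, and MSRB3 of 0.36 and 0.24, without a call. Of 10 defensin genes measured, PDF2.1 is the only member. Of the other 9, 1 rose in OE, beside 4.88% of all probe sets, and 2 rose in wild-type, beside 3.26%. PDF1.4 was 1.84 higher after NaCl in OE (adjusted p = 0.035, and up to 0.098 with 1 array left out) and had a difference of -0.48 in wild-type. PDF1.1 and PDF1.2b rose in wild-type, by 2.65 and 2.03, and had differences of 0.06 and -0.31 in OE. OEP16-4 had differences of 0.61 in OE and 0.02 in wild-type, and PASPA1 of 0.11 and 0.30, without a call. PASPA3 had differences of -0.12 in OE and -0.61 in wild-type, the second called (adjusted p = 0.043, and up to 0.36 with 1 array left out). AOP1, of the family of AOP3, had differences of -0.59 in OE and -0.75 in wild-type, again without a call.

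**Figure D5:**
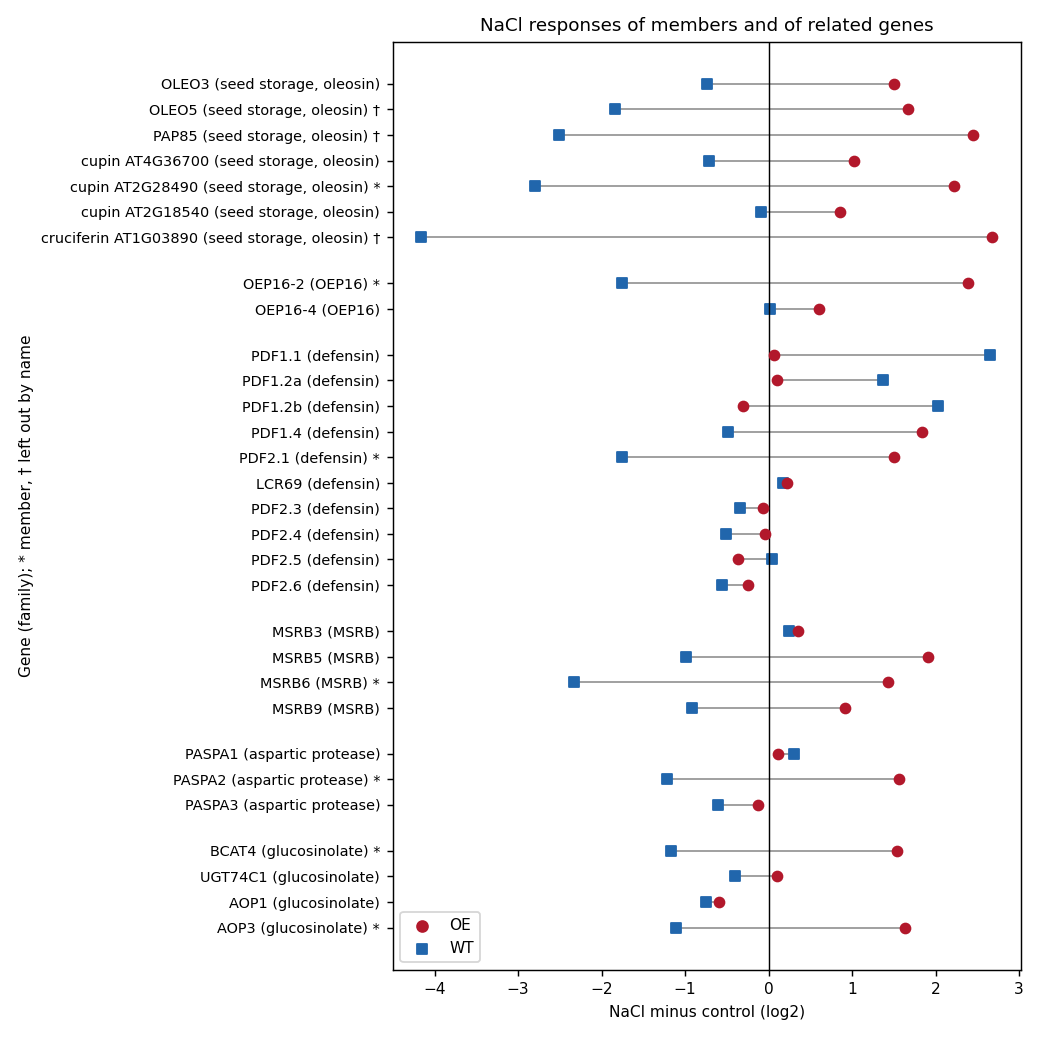
Log2 difference NaCl minus control in OE (red circles) and in wild-type (blue squares) for members (asterisk), genes left out by name (dagger) and other measured genes on the lists of the families described. AT2G25890 is not on these lists and is not shown. In MSRB6 the points lie at 1.43 and -2.33, whereas in MSRB3 both lie near 0.

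Transcripts of the seed coat were read from a list with 3 measured genes, BAN, DFR and SBT1.7. BAN, an enzyme of proanthocyanidin synthesis in the seed coat, had 4.56 and 4.25 in OE NaCl and 7.13 and 7.27 in OE control, against 8.68 and 8.59 in WT NaCl and 8.72 and 8.46 in WT control. It fell by 2.79 in OE after NaCl and changed by 0.04 in wild-type, the responses differing by -2.83 ± 0.23 (adjusted p = 0.0018). In OE 2 of the 3 fell, BAN and DFR, beside 2.33% of all probe sets, and none was called in wild-type. The call of DFR in OE was lost without any 1 of the wild-type or OE control arrays (adjusted p up to 0.080), and the difference of its responses was not called (adjusted p = 0.11). SBT1.7 was not called, with differences of 0.11 in OE and 0.44 in wild-type. The summed linear level of the 3 genes, which adds probe sets of unlike sensitivity, was 511 and 617 in OE NaCl, 734 and 704 in OE control, 1114 and 1150 in WT NaCl and 947 and 981 in WT control. DELTA-VPE, a protease of the inner seed coat that stands on another list, had 9.44 and 9.20 in OE NaCl, 10.62 and 10.54 in OE control, 11.35 and 11.42 in WT NaCl and 11.48 and 11.33 in WT control. Of 4 genes measured on that other list, 1 fell in OE, DELTA-VPE, and 2 rose, beside 2.33% and 4.88% of all probe sets. BETA-VPE rose by 1.48 and ALPHA-VPE by 1.26 (0.95 to 1.57 with 1 array left out), while GAMMA-VPE changed by -0.18 without a call. None of the 4 was called in wild-type. The part of the seed coat transcripts in the members' levels was not tested.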

How the data were processed

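ATH1 arrays of 4 groups of 2 were analysed. The deposited values are on a log2 scale, 1 per probe set and array; the authors' processing notes name Affymetrix Expression Console, with version and summarization not given in the sources used here. No further normalization was applied. Of 22810 probe sets, 64 controls were left out; 13513 of the others name 1 gene, 503 several and 8730 none, and 13436 of the first were found in the gene table of TAIR10.1.

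Differences were fitted in R 4.3.3 by limma 3.58.1: group means, 1 shared spread, eBayes and Benjamini-Hochberg adjustment over 22746 probe sets, at 0.05, and the procedure was tested on simulated data. The members and the gene lists were chosen with earlier results of these data known. Named genes are the 12 members with the widest difference of responses, listed or symbol-bearing members, those nearest each limit, and listed non-members whose responses differ. The other members, the groups by role and 8 family lists were added after their values were seen. The alternatives were other limits, quantile normalization, median centring, a filter at the 25th percentile, an intensity trend, array weights, a fit to the 4 arrays compared, the methods' limit, replicate number as a block and each array left out. Promoter sequences were not used here. The number of arrays limits the precision.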

Additional observations from a re-analysis of the deposited data

Results flagged for a closer look

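The responses to NaCl differed between OE and wild-type at an adjusted p under 0.05 (limma, interaction) in 60 of the 61 members, which were chosen for that difference, and in 12 listed genes that are not members. These 12 come from 11 lists with 48 measured non-members and from 8 family lists added after their values were seen. Of all probe sets, 1.23% had that call with the higher response in OE. AT2G22080 is the member without that call. Given as the OE response minus the wild-type response on the log2 scale, the difference was 2.23 in OLEO3, 2.41 in the LEA gene AT3G17520, 3.91 in LEA4-1 and -2.83 in BAN. These 4 kept an adjusted p under 0.05 with each of the 8 arrays left out in turn, at most 0.030, 0.047, 0.0044 and 0.024.

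In the other 8 the call was lost without at least 1 array. MSRB5 had a difference of 2.90 and ICL, the isocitrate lyase by which seedlings turn stored oil into sugar, one of 2.82, and both calls ended with any wild-type array left out (adjusted p = 0.076 to 0.10 in MSRB5 and 0.053 to 0.11 in ICL). The defensin gene PDF1.2b, at -2.34, lost its call without either WT control array (0.059 and 0.084) or the first WT NaCl array (0.070). The LEA gene AT3G02480, at 2.39, and PDF1.1, at -2.59, lost it without any 1 of the wild-type or OE control arrays, the adjusted p reaching 0.13 in each. DELTA-VPE, at -1.24, did so without the same 6 arrays, with an adjusted p of up to 0.26. M17, a LEA gene at -2.91, lost its call without any wild-type array or the second OE NaCl array, with up to 0.22, and the LEA gene AT2G23120, at -1.13, without any wild-type array or the first OE control array, with up to 0.27.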

How the results depend on the processing

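The number of members depends on the limit: 209 probe sets met a log2 limit of 0.5, 36 a limit of 1.5 and 17 a limit of 2. Quantile normalization gave 63, median centring 60 and a filter at the 25th percentile 61. The arrays numbered 1 gave 63, those numbered 2 gave 68, and leaving out each array 61 to 68. A fit to only the 4 arrays compared called 27 members in OE, 6 listed genes higher and 1 lower in OE and 10 lower in wild-type, against 59, 14, 4 and 3 in the fit to all arrays; array weights gave 9 listed genes higher and 2 lower in OE and 10 lower in wild-type. The methods' limit (P under 0.05 without adjustment and a log2 difference over 2) called 26 members in OE, 29 in wild-type and 15 between the controls. The shares of all probe sets at that limit were not counted, so these numbers describe the members only.

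With each array left out, the members called numbered 49 to 61 for OE, 35 to 61 for wild-type, 47 to 61 for the difference of responses, 18 to 54 between controls and 46 to 59 between the NaCl groups. Listed genes called numbered 11 to 22 higher and 2 to 5 lower in OE, and 4 to 13 higher and 0 to 4 lower in wild-type. The low ends came where an array of that comparison or of wild-type was missing, the lone array being assumed to vary like the others; without the first OE NaCl array 22 listed genes were higher in OE.

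With replicate number as a block, members called were 59 in OE, 57 in wild-type, 60 for the difference of responses, 47 between controls and 56 between NaCl groups, and listed genes lower in wild-type 1. Replicate differences correlated at 0.18 between the OE groups, 0.02 between the wild-type groups and -0.20 between OE NaCl and WT control. Such correlations cannot show whether arrays of the same number shared a batch or culture. Between OE NaCl and WT NaCl the correlation was -0.13, and crossing their numbers, an alternative chosen after seeing the data, called 56 members. No called log2 difference of a named gene changed sign in the alternatives run. The motif alternative was not run, as no promoter sequences were used.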
